A study of Mus musculus with 12 samples.

Results

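Fatty acid desaturases and elongases are the membrane enzymes of the endoplasmic reticulum that insert double bonds into fatty acyl chains and lengthen them. The set described here was chosen by name and holds 10 genes of the 53379 in the count table: the stearoyl-CoA desaturases Scd1 and Scd2, the polyunsaturated fatty acid desaturases Fads1 and Fads2, and the elongases Elovl1, Elovl2, Elovl4, Elovl5, Elovl6 and Elovl7. All 10 were found by their Ensembl identifier, and all 10 were among the 19252 genes that passed the filter on low counts. RNA was sequenced from brain tissue, which the series describes as injured cortex, of wild-type C57BL/6J mice collected 6 months after rlmTBI, a repetitive closed head injury of less than mild grade, or after sham treatment. Sham and injured mice were fed either a purified control diet all the time or, in cycles, a high fat diet to which fish oil was added. Each of the 4 combinations had 3 libraries, numbered 2, 3 and 4 by the submitters, and they are called purified or fish oil, sham or injured. The fish oil diet also differed in its fat content, so fish oil and fat content cannot be told apart. The labels do not say that each library came from a separate animal, so a p-value covers the spread among libraries, which may be technical.

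Scd enzymes turn saturated into monounsaturated acyl chains. Fads2 and Fads1 act in turn on the dietary essential fatty acids, with Elovl5 and Elovl2 adding carbons between and after them, and this route yields arachidonic, eicosapentaenoic and, after shortening in peroxisomes, docosahexaenoic acid, the main omega-3 fatty acid of brain membranes. Elovl6 lengthens palmitate to stearate, while Elovl1, Elovl4 and Elovl7 make very long chains, among them those of myelin sphingolipids (Elovl1) and the ultra-long chains of retina, skin and neurons (Elovl4). In liver, transcription of Scd1, Fads1, Fads2, Elovl5 and Elovl6 is driven by the sterol regulatory element binding protein SREBP-1 and is lowered by dietary polyunsaturated fat, fish oil included.

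Promoter sequences were shown for 2 elongases, Elovl7, which had the largest fold change of the set, and Elovl5, the one member with an E-box among the 7 whose promoters were at hand. The stretches are the 250 bases before the RefSeq start of each gene in GRCm38.p6, both on the plus strand, at chr13:108214154-108214403 for Elovl7 and chr9:77917115-77917364 for Elovl5. Capitals mark matches, on either strand, to GGGCGG (the GC box bound by Sp1), CACCCCAC (a core found in sterol regulatory elements), CCAAT (the box of NF-Y) and CACGTG (the E-box).
Elovl7: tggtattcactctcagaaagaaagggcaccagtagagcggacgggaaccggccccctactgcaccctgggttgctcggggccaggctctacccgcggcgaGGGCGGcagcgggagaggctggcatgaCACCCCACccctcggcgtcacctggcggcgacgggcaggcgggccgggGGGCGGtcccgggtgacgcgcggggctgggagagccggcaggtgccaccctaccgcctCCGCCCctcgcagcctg
Elovl5: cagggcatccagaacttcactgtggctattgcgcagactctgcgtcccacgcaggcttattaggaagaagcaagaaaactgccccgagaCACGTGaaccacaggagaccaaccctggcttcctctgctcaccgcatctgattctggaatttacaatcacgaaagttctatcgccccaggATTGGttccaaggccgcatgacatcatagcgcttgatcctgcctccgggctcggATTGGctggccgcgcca
The RefSeq table held promoters of 7 of the 10 genes. CACCCCAC was found in 2.58% of all 32851 promoters of this length and, among the members, in Elovl7. The E-box was found in 6.02% of all promoters and, among the members, in Elovl5. The CCAAT box, in 33.8% of all promoters, was found in Elovl1 and Elovl5, and the GC box, in 32.7%, in Elovl1, Elovl2, Elovl4, Elovl7 and Fads2. These are matches of letters in short windows and not measured binding.

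Fads1 and Fads2 lie on chromosome 19 of GRCm38 at 10182888 to 10196877 (plus strand) and 10062765 to 10101746 (minus strand), and Scd1 and Scd2 on the same chromosome at 44394455 to 44407879 (minus strand) and 44293674 to 44306864 (plus strand). Elovl5 (77917364 to 77984519, plus strand) and Elovl4 (83778692 to 83806277, minus strand) are on chromosome 9, Elovl2 (41182381 to 41220405, minus strand) and Elovl7 (108214404 to 108285683, plus strand) on chromosome 13, Elovl6 on chromosome 3 (129532355 to 129638495, plus strand) and Elovl1 on chromosome 4 (118428093 to 118432953, plus strand). Counts cover all exons of each gene. Exons of other genes cover at most 1.94% of a member's exonic length, the largest overlap being that of Elovl1 with Cdc20 on the opposite strand. Scd1, Scd2 and the minor copies Scd3 and Scd4 are close paralogs, and how reads fitting several of them were counted is not stated, so their split is uncertain.

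Total counts ran from 46362158 to 70754854 per library, and the member with the lowest count in any library, Elovl7, still had 468 reads there, so spread between libraries and not counting limits these values. All 10 neuronal, 12 astrocyte and 15 myelin markers had counts in every library. Transcripts of neighbouring tissue differed between libraries: the choroid plexus gene Ttr stood at 186, 2420 and 2260 CPM (counts relative to library size, scaled by TMM factors) in fish oil injured replicates 2, 3 and 4, at 434 CPM in 1 purified sham library, replicate 3, and between 9.82 and 50.1 CPM in the other 8 libraries. The olfactory bulb gene Cdhr1 stood at 522 CPM in purified injured replicate 3 and at 1.87 to 25.9 CPM elsewhere. The striatal gene Drd2 was highest in fish oil sham replicate 2, at 72.2 CPM. The striatal score (mean log2 level of markers relative to all libraries) was 3.15 there. It was 1.84 in purified sham replicate 4 and -1.29 to 0.77 elsewhere. In bulk tissue, fewer cells of a type and less RNA per cell cannot be told apart.

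Scd2 was by far the most abundant member. Per kilobase of exon it stood at 302 ± 42.4 CPM (SD, n = 12 libraries), with a range of 216 to 385. Scd1 followed at 54.1 ± 12.7 CPM per kilobase, so that the ratio of Scd2 to Scd1 on this scale was 4.65 to 7.61 in the single libraries. Scd2 is the stearoyl-CoA desaturase known for its high level in brain, and it exceeded Scd1 in 12 of 12 libraries. Fads1 stood at 45.6 ± 3.04 CPM per kilobase, below Scd1 in 8 of 12 libraries, a pair whose order did not exceed its spread and turned when the longest transcript (63.4 for Fads1, 54.7 for Scd1) replaced the union of exons. Fads2, at 26.5 ± 5.36 CPM per kilobase, was below Fads1 in 12 of 12 libraries. The genes for the first and the later desaturation of the polyunsaturated route thus differed in level, the ratio of Fads1 to Fads2 running from 1.32 to 2.15.

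Among the elongases, Elovl4 (23.3 ± 2.76 CPM per kilobase) and Elovl5 (21.1 ± 4.27) were at the top. Elovl4 was not separated from Elovl5 or from Fads2 beyond the spread. It was above Elovl5 in 9 of 12 libraries and below Fads2 in 8 of 12. Elovl6 stood at 12.3 ± 2.23 CPM per kilobase and was below Elovl5 in 12 of 12 libraries. Elovl2 (4.87 ± 1.05), Elovl7 (4.61 ± 1.51) and Elovl1 (4.53 ± 0.679) formed the lowest step, below Elovl6 in every library and not separated from each other. With the length of the longest transcript Elovl1 (6.82) came before Elovl2 (5.03) and Elovl7 (4.61), and Elovl5 (26.7) before Elovl4 (23.5). Spread over the 12 libraries was lowest for Fads1, with a coefficient of variation of 6.67%, and highest for Elovl7, at 32.8%.

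**Figure D1:**
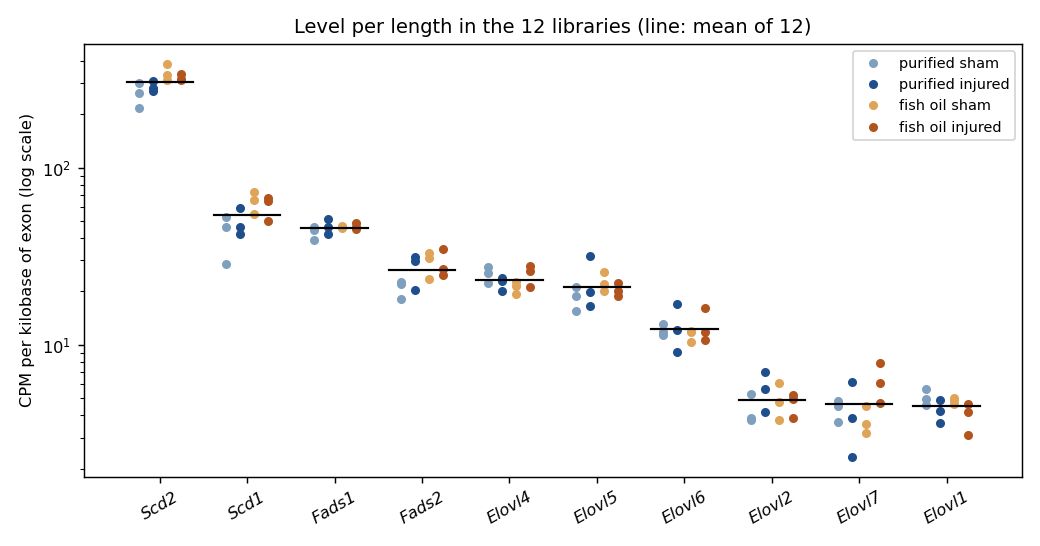
Level of each gene per kilobase of exon (CPM per kilobase, log scale) in the 12 libraries, with 1 point per library coloured by group and a line at the mean of 12. Scd2 lies above all other members, and Elovl2, Elovl7 and Elovl1 share the lowest step.

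The diet comparison asks how the fish oil diet changes these transcripts, and in sham mice both stearoyl-CoA desaturase genes and Fads2 had higher values on fish oil, while 0 of the 10 genes passed the adjusted test by edgeR or by DESeq2. Scd1 (ENSMUSG00000037071.2) stood at 225, 139 and 257 CPM in the purified sham libraries and at 356.5, 266 and 319 CPM in the fish oil sham libraries. All 3 fish oil libraries were above all 3 purified ones, but the lowest fish oil library was close to the highest purified one. Fish oil was 1.52-fold higher, a log2 fold change of 0.60 ± 0.22 (SE; edgeR's quasi-likelihood test, adjusted p = 0.934 over all genes).

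Scd2 (ENSMUSG00000025203.5) stood at 1432, 1182 and 1641 CPM in purified sham and at 2105, 1709 and 1809 CPM in fish oil sham libraries, again without overlap. Its log2 fold change was 0.40 ± 0.13 (SE; edgeR adjusted p = 0.934). Fads2 (ENSMUSG00000024665.7), the enzyme of the first desaturation of essential fatty acids, stood at 72.8, 59.6 and 74.7 CPM in purified sham and at 108, 77.3 and 102 CPM in fish oil sham libraries. The Fads2 groups were separated by the small gap between purified replicate 4 and fish oil replicate 3, and the log2 fold change was 0.47 ± 0.19 (SE; edgeR adjusted p = 0.934).

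Of the 10 genes, 3 therefore had higher and non-overlapping values in fish oil sham mice, where 6.31% of all genes did so, and 0 had lower ones, where 7.45% did. An unadjusted p under 0.05 with a higher value was reached by these 3 genes, against 1.74% of all genes, and with a lower value by 0, against 1.95%. After adjustment 0 of the 10 genes passed, and 0% of all genes. Fads1, the partner of Fads2, showed little of this: it stood at 224, 187 and 213 CPM in purified sham and at 222, 220 and 226 CPM in fish oil sham libraries, with a fold change smaller than its SE. Among the elongases, Elovl5 had a log2 fold change of 0.28 ± 0.21 and Elovl4 one of -0.24 ± 0.12, both with overlapping groups, and for Elovl1, Elovl2, Elovl6 and Elovl7 the fold change was smaller than its SE. The Elovl5 value was 0.18 without purified sham replicate 3, 0.19 without fish oil sham replicate 2, 0.14 with the astrocyte score as a covariate and 0.15 when adjusted for choroid plexus, striatal and olfactory markers. The median log2 fold change was 0.14 over the 10 genes and 0.01 over all genes tested.

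Purified sham replicate 3 was the lowest of the 12 libraries for Scd1, Scd2, Fads1, Fads2 and Elovl5. Without it the log2 fold change between the diets in sham mice was 0.39 for Scd1, 0.30 for Scd2 and 0.39 for Fads2. That library also had the lowest myelin score of the 3 purified sham libraries (mean log2 level of 15 markers relative to all libraries), -0.73 against 0.35 and 0.70, besides its Ttr. With the myelin score as a covariate the log2 fold change was 0.57 for Scd1 and 0.38 for Scd2, and adjusted for marker scores of choroid plexus, striatum and olfactory bulb it was 0.45 and 0.30.

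**Figure D2:**
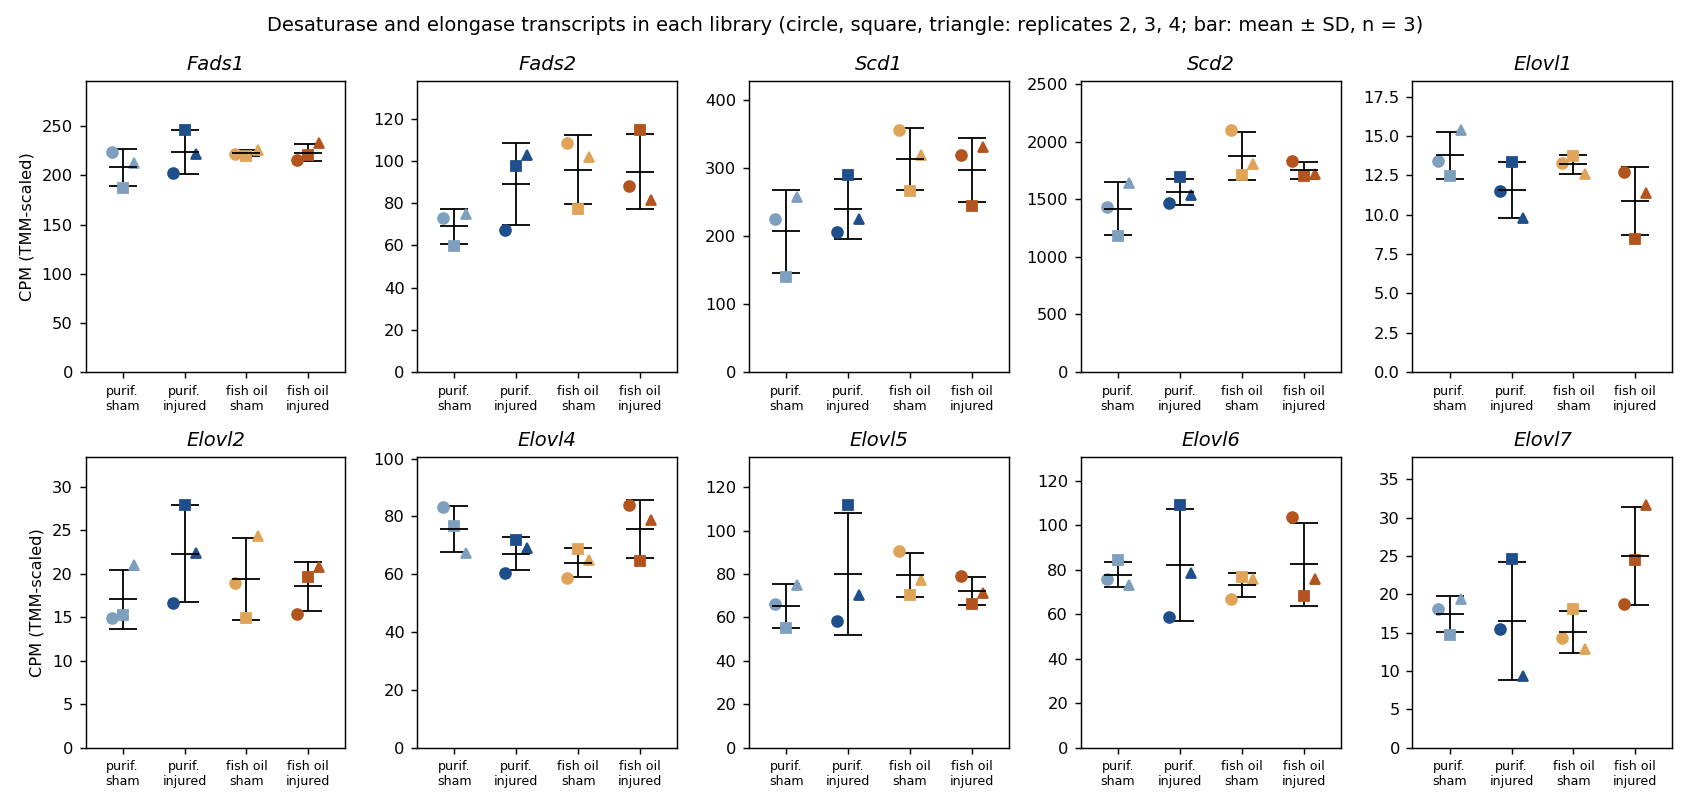
CPM of each of the 10 genes in each library, with circles, squares and triangles for replicates 2, 3 and 4 and bars for the group mean ± SD (n = 3). Scd2 values on fish oil lie above those on the purified diet, and Elovl7 has its highest group mean in the fish oil injured libraries.

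In injured mice the fitted differences between the diets did not pass the test for any desaturase, and for Scd1 and Scd2 they depended on the tissue markers taken into account. Scd1 stood at 206, 289 and 225 CPM in purified injured and at 318.5, 244 and 330.4 CPM in fish oil injured libraries, groups that overlapped, with a log2 fold change of 0.31 ± 0.22 (SE). Scd2 stood at 1470, 1691 and 1537 CPM against 1831, 1702 and 1717 CPM. These Scd2 groups did not overlap, but the highest purified and the lowest fish oil library lay close together. Their order turned when counts were taken relative to total counts alone, without TMM factors. The log2 fold change of Scd2 was 0.16 ± 0.13 (edgeR adjusted p = 0.678). Of the 10 genes, Scd2 was the single one with higher, non-overlapping values here, against 5.6% of all genes, and 0 had lower ones, against 5.98%. Fads1 and Fads2 had fold changes smaller than their SE. Adjusted for marker scores of choroid plexus, striatum and olfactory bulb, the Scd1 value was 1.00 ± 0.31 and that of Scd2 0.50 ± 0.19. These lay above the values in sham mice, but the choroid plexus scores of the injured groups do not overlap. They ran from 0.87 to 3.77 on fish oil and from -1.97 to -0.83 on the purified diet. Choroid plexus content and diet in injured mice therefore cannot be told apart. With the myelin score as a covariate the values in injured mice were 0.14 for Scd1 and 0.09 for Scd2.

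Over both injury states, all 6 fish oil libraries were above all 6 purified libraries for Scd2 in TMM-scaled CPM. This held for 0.125% of all genes, while 0 of the 10 genes had lower, non-overlapping values, against 0.301%. Closest were purified injured replicate 3 at 1691 and fish oil injured replicate 3 at 1702 CPM, with TMM factors of 1.06 and 0.965. Relative to total counts alone, the Scd2 split did not hold. Purified injured replicate 3 (82978 of 46362158 counts) then lay above fish oil injured replicate 3 (96976 of 59050525). The averaged log2 fold change of Scd2 was 0.28 ± 0.09 (SE; edgeR adjusted p = 0.469). Scd1 had the larger averaged difference, 0.46 ± 0.16 (edgeR adjusted p = 0.471), with 2 fish oil libraries, injured replicate 3 at 244 and sham replicate 3 at 266 CPM, lying among the purified ones. Adjusted for marker scores of choroid plexus, striatum and olfactory bulb the Scd1 value was 0.72 ± 0.16. That value takes in the injured mice, in which choroid plexus content and diet cannot be told apart. Fads2 had an averaged log2 fold change of 0.28 ± 0.13 (edgeR adjusted p = 0.571), and the other 7 genes had averaged fold changes smaller than their SE. With an unadjusted p under 0.05, 2 of the 10 genes were higher on fish oil, against 2.75% of all genes, and 0 were lower, against 6.1%. After adjustment 0 of 10 genes passed in this comparison, as did 0% of all genes. Endothelial markers split the libraries in the same way as Scd2 did but in the opposite direction: all 14 had averaged diet values below 0, and their summed level was 144 to 177 CPM in fish oil and 201 to 334 CPM in purified libraries. All 15 myelin markers had averaged values above 0, with a median of 0.42 and overlapping scores. The part of the endothelial markers in the Scd2 result was not tested.

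Scd1 and Scd2 followed each other closely from library to library. Their Pearson correlation of log2 CPM was 0.947 over the 12 libraries, and each was the gene most like the other among 13219 compared. Both were lowest in purified sham replicate 3 and highest in fish oil sham replicate 2. As their reads may be shared in part, the likeness is a description of the counts. The ratio of Scd2 to Scd1 per kilobase was 5.24 to 7.61 on the purified and 4.65 to 6.25 on the fish oil diet, ranges that overlap.

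Fads2 was high in libraries with high levels of astrocyte, meningeal fibroblast and microglial markers. Over the 12 libraries, which share their groups, its Pearson correlation was 0.858 with the astrocyte, 0.736 with the meningeal fibroblast, 0.701 with the microglial and -0.692 with the endothelial score, and within groups it was -0.703 with the neuronal score. Other members followed the astrocyte score as well. Within groups it correlated at 0.89 with Fads2, 0.836 with Elovl2, 0.673 with Elovl5 and 0.614 with Fads1. For Elovl1 and Elovl4 that correlation was -0.071 and -0.098. The astrocyte score, over 12 markers such as Aqp4, was lowest in purified injured replicate 2 at -0.41 and purified sham replicate 3 at -0.24, and these were the libraries with the lowest Fads2, at 67.1 and 59.6 CPM. It was highest in fish oil injured replicate 3 at 0.22, the library with the highest Fads2, at 115 CPM, and also with the highest meningeal fibroblast score, at 1.05. The part of the fibroblast and microglial markers in the diet values of Fads2 was not tested. With the astrocyte score as a covariate, an alternative chosen after these values were seen, the log2 fold change of Fads2 between the diets in sham mice was 0.29 ± 0.12 in place of 0.47, and that averaged over injury 0.13 ± 0.09 in place of 0.28. The values of Scd2 moved less, to 0.34 ± 0.13 in sham mice and 0.23 ± 0.09 on average.

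**Figure D3:**
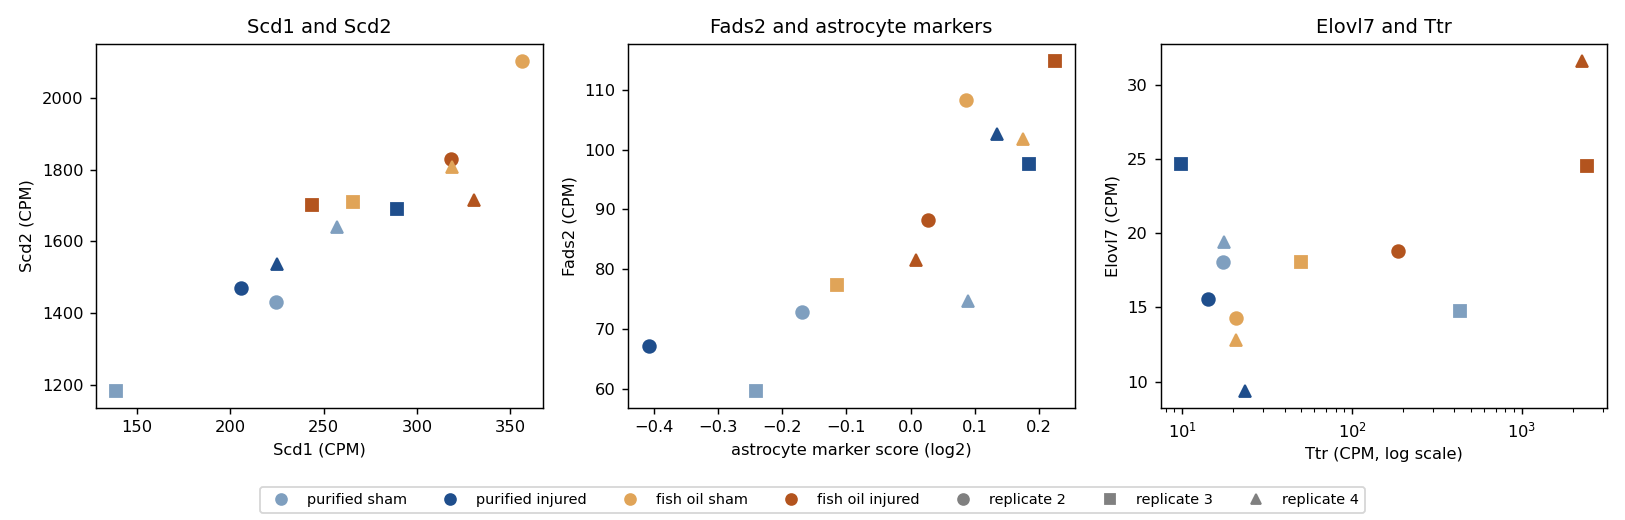
Library values of Scd2 against Scd1 (CPM), of Fads2 (CPM) against the astrocyte marker score (log2) and of Elovl7 (CPM) against Ttr (CPM, log scale), with 1 point per library, coloured by group and shaped by replicate. Scd1 and Scd2 are high in the same libraries, Fads2 is high in most libraries where astrocyte markers are high, and Elovl7 is high both in 2 libraries with Ttr at 2260 and 2420 CPM and in 1 with Ttr at 9.82 CPM.

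The injury comparison on the purified diet asks what the impacts left behind after 6 months, and 0 of the 10 genes passed the adjusted test there, by edgeR or DESeq2. It shares the purified sham libraries with the diet comparison in sham mice, so a low library in that group enters both. Fads2 stood at 67.1, 97.6 and 102.6 CPM in purified injured libraries against 72.8, 59.6 and 74.7 in purified sham libraries, with a log2 fold change of 0.37 ± 0.19 (SE; edgeR adjusted p = 0.773). Injured replicate 2 lay among the sham libraries and the other two above them. Elovl2, which lengthens the precursors of docosahexaenoic acid, stood at 16.7, 27.9 and 22.4 CPM against 14.9, 15.3 and 20.96 CPM, with a log2 fold change of 0.39 ± 0.23 and overlapping groups, which became 0.21 without purified injured replicate 3.

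Elovl5 stood at 58.3, 111.7 and 70.4 CPM in purified injured and at 66.1, 54.9 and 75.0 CPM in purified sham libraries. The higher mean rested on a single library: the log2 fold change of 0.29 ± 0.21 turned to -0.0083 without purified injured replicate 3, the library rich in the olfactory bulb gene Cdhr1. That library was also the highest of the 12 for Fads1 at 246.6, Elovl2 at 27.9 and Elovl6 at 109 CPM. Lower values after injury were found for Elovl1, with a log2 fold change of -0.25 ± 0.17, and Elovl4, with one of -0.17 ± 0.12, both with overlapping groups. With the myelin score as a covariate the Elovl1 value was -0.10, without purified injured replicate 4 it was -0.14, without purified sham replicate 4 it was -0.16, and adjusted for the other 3 tissue scores it was -0.50. The Elovl4 value was -0.09 without purified sham replicate 2 and -0.10 without purified injured replicate 2. Fads1 (0.10 ± 0.10) and Scd2 (0.14 ± 0.13) had fold changes just above their SE. Both became 0.04 without purified sham replicate 3. For Scd1, Elovl6 and Elovl7 the fold change was smaller than its SE. In this comparison 0 of 10 genes passed after adjustment, against 0% of all genes, 0 had an unadjusted p under 0.05, against 3.93% of all genes higher and 2.57% lower, and 0 had groups that did not overlap, against 4.92% higher and 6.68% lower.

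For injury on the fish oil diet the largest fold change of the 10 genes was that of Elovl7, an elongase of very long saturated chains. It stood at 18.8, 24.5 and 31.6 CPM in fish oil injured libraries and at 14.3, 18.1 and 12.8 CPM in fish oil sham libraries. All 3 injured libraries were above all 3 sham libraries, the lowest injured library being close to the highest sham library. The value was 1.66-fold higher, a log2 fold change of 0.73 ± 0.30 (SE; edgeR adjusted p = 0.999). Of the 10 genes Elovl7 alone had higher, non-overlapping values, against 4.97% of all genes, and 0 had lower ones, against 5.23%. It was also the single member higher with an unadjusted p under 0.05, against 1.58%, while 0 were lower, against 1.9%. Without fish oil injured replicate 4 the log2 fold change was 0.52.

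The fish oil injured libraries with the most Elovl7, replicates 3 and 4, were also those with Ttr at 2420 and 2260 CPM. All 14 choroid plexus markers had counts in every library, with a summed level of 257 to 2820 CPM in fish oil injured and 43.9 to 70.3 CPM in fish oil sham libraries. Purified injured replicate 3 held 24.7 CPM of Elovl7 with Ttr at 9.82 CPM, and purified sham replicate 3 held 14.8 CPM with Ttr at 434 CPM. Adjusted for marker scores of choroid plexus, striatum and olfactory bulb, the log2 fold change was 0.65 ± 0.52 in place of 0.73 ± 0.30. The choroid plexus scores of these groups do not overlap, so that tissue and injury on fish oil cannot be told apart here. The myelin score left the value at 0.79 ± 0.32.

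The other members had smaller fold changes for injury on fish oil. Elovl4 stood at 83.9, 64.5 and 78.9 CPM in injured against 58.7, 68.6 and 64.8 CPM in sham libraries, with a log2 fold change of 0.24 ± 0.12 (edgeR adjusted p = 0.999). Injured replicate 3 lay among the sham libraries. Elovl1 stood at 12.7, 8.48 and 11.4 CPM against 13.3, 13.7 and 12.6 CPM, with a log2 fold change of -0.28 ± 0.17 that moved to -0.13 without injured replicate 3 and turned to 0.12 when adjusted for marker scores of choroid plexus, striatum and olfactory bulb. The 7 remaining genes, all 4 desaturases among them, had fold changes smaller than their SE. After adjustment 0 of the 10 genes passed, and 0% of all genes.

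**Figure D4:**
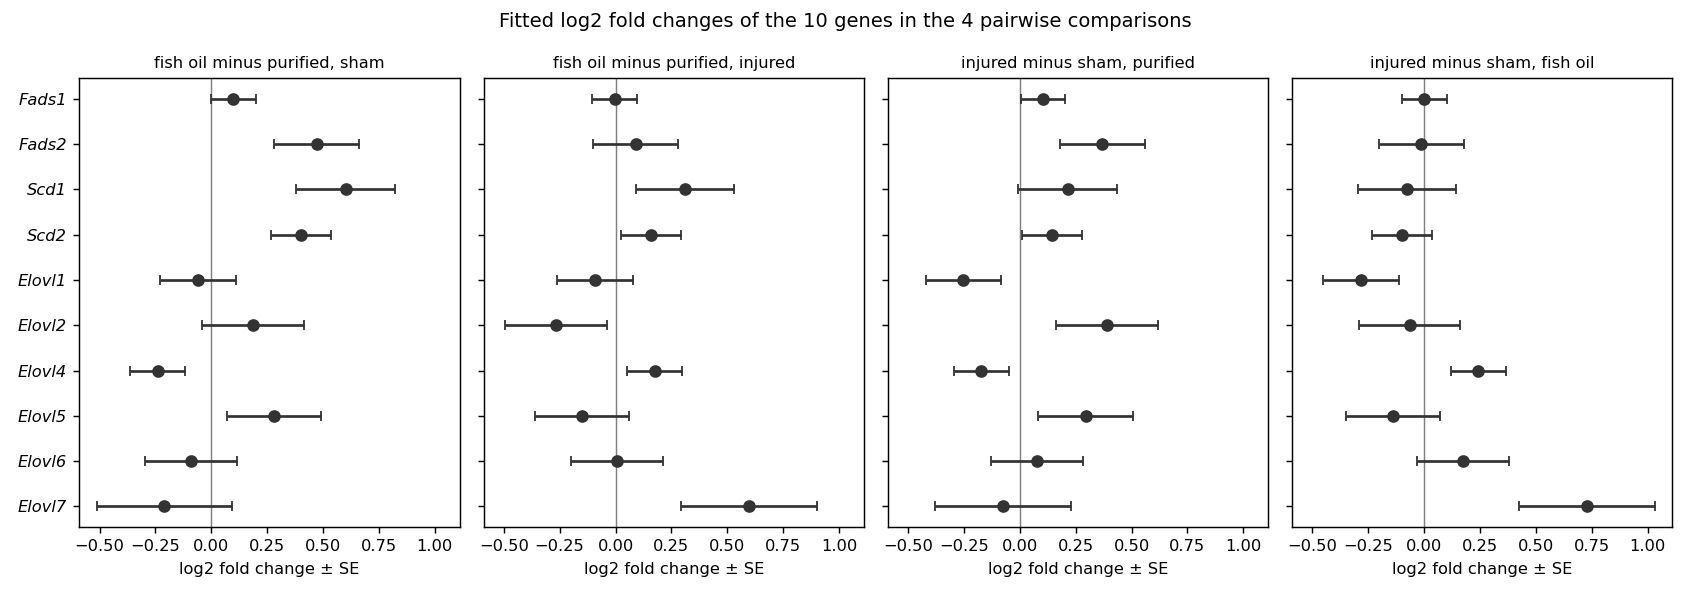
Fitted log2 fold changes ± SE of the 10 genes for fish oil against purified diet (sham, injured) and injured against sham (purified, fish oil). Scd1, Scd2 and Fads2 lie to the right of 0 for diet in sham mice, and Elovl7 lies farthest to the right for injury on fish oil.

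Averaged over the diets, Elovl1 was the member with the smallest p for injury. Its group means were 13.8 ± 1.49 CPM (SD, n = 3) in purified sham, 11.6 ± 1.77 in purified injured, 13.2 ± 0.586 in fish oil sham and 10.85 ± 2.16 in fish oil injured libraries. The averaged log2 fold change was -0.27 ± 0.12 (SE; edgeR adjusted p = 0.991), and the 6 injured and 6 sham libraries overlapped. It was the single member lower with an unadjusted p under 0.05, against 1.72% of all genes, and 0 members were higher, against 1.89%, while 0 had groups that did not overlap, against 0.0623% of all genes higher and 0.0467% lower. Elovl1 varied with several marker scores by library. Its lowest values were 8.48 CPM in fish oil injured replicate 3 and 9.82 CPM in purified injured replicate 4. These libraries had the lowest myelin scores, -0.84 and -0.75, and the highest meningeal fibroblast scores, 1.05 and 1.04. Purified sham replicate 3 had a myelin score of -0.73 but more Elovl1 than purified injured replicate 2, whose myelin score was -0.16. Within groups Elovl1 correlated (Pearson) at 0.779 with myelin, 0.724 with endothelial, -0.684 with meningeal fibroblast and -0.618 with choroid plexus scores. The part of the endothelial and fibroblast markers in the Elovl1 value was not tested. With the myelin score as a covariate the averaged value of Elovl1 was -0.16 ± 0.11. The other averaged injury values above their SE were those of Fads2 (0.18 ± 0.13), Elovl2 (0.16 ± 0.16) and Elovl7 (0.33 ± 0.21), of which those of Elovl2 and Elovl7 became 0.07 and 0.13 without purified injured replicate 3. The Fads2 value was 0.10 without fish oil injured replicate 3, 0.11 without fish oil sham replicate 3 and 0.12 without purified injured replicate 4. Adjusted for marker scores of choroid plexus, striatum and olfactory bulb, the Elovl2 value turned to -0.032, and those of Fads2 and Elovl7 were 0.11 and 0.07. After adjustment 0 of the 10 genes passed, against 0% of all genes.

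The interaction asks whether injury acted differently on the 2 diets. Elovl4 had the smallest p of the set, with a log2 value of 0.42 ± 0.17 (SE; edgeR adjusted p = 0.820), its injury fold change being -0.17 on the purified and 0.24 on the fish oil diet. Elovl4 correlated (Pearson) at -0.78 with the microglial score over the 12 libraries and at -0.776 within groups. Its correlation within groups with the striatal score was -0.602. All 10 microglial markers had interactions below 0, with a median of -0.26. The part of the microglial markers in the Elovl4 value was not tested. Elovl7 had the largest interaction, 0.81 ± 0.43. Negative interactions above their SE were those of Elovl2 (-0.45 ± 0.32), Elovl5 (-0.43 ± 0.30), Fads2 (-0.38 ± 0.27) and Scd2 (-0.24 ± 0.19). Adjusted for marker scores of choroid plexus, striatum and olfactory bulb, those of Scd2 and Elovl5 turned positive, at 0.19 and 0.31. Choroid plexus scores of the fish oil injured libraries overlapped neither those of fish oil sham nor those of purified injured libraries. Choroid plexus content and interaction therefore cannot be told apart in these adjusted values. With single libraries left out, the Elovl2 interaction fell in size to -0.26 (without fish oil sham replicate 4) and to -0.28 (without purified injured replicate 3), and that of Scd2 to -0.15 (without purified sham replicate 3). Without both the library richest in Cdhr1 and that richest in Drd2, the interactions of Fads2 and Scd2 were -0.23 and -0.11. The 10 genes had 1 higher value with an unadjusted p under 0.05, against 2.85% of all genes, and 0 lower, against 2.9%, and after adjustment 0 of 10 passed, with 0% of all genes. Without purified injured replicate 3 the interaction of Elovl5 was -0.14 and that of Elovl7 1.19, and without purified injured replicate 4 that of Elovl7 was 0.50.

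Between the diets in injured mice the elongases gave values of both signs. Elovl7 stood at 15.5, 24.7 and 9.36 CPM in purified injured libraries against 18.8, 24.5 and 31.6 in fish oil injured ones, with a log2 fold change of 0.60 ± 0.30 (SE; edgeR adjusted p = 0.507). It moved to 0.30 without purified injured replicate 4, to 0.38 without fish oil injured replicate 4 and to 1.00 without purified injured replicate 3. All 14 choroid plexus markers had higher values in the fish oil injured than in the purified injured libraries, 13 with an unadjusted p under 0.05 (their median on the log2 scale was 4.29), and their scores did not overlap, at 0.87 to 3.77 against -1.97 to -0.83. Choroid plexus content and diet in injured mice therefore cannot be told apart, and the value adjusted for the 3 tissue scores was 0.90 ± 0.59. Elovl4 had a log2 fold change of 0.17 ± 0.12 and Elovl2 one of -0.27 ± 0.23, the latter moving to -0.08 without purified injured replicate 3, to -0.14 without fish oil injured replicate 2 and to -0.43 without purified injured replicate 2. The Elovl4 value was 0.10 without fish oil injured replicate 2, 0.11 without purified injured replicate 2 and 0.28 without fish oil injured replicate 3. Elovl1, Elovl5 and Elovl6 had fold changes smaller than their SE. With an unadjusted p under 0.05 there were 0 of 10 genes, against 3.89% of all genes higher and 6.83% lower, and after adjustment 0, against 0%.

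Of the genes that work with the set, in 7 lists, 0 passed the adjusted edgeR test in any of the 7 comparisons. For diet in sham mice an unadjusted p under 0.05 was reached by 1 higher gene of the 12 lipogenic regulators. That level was also reached by 1 lower gene of the other family members and 0 genes of the remaining lists. Of all genes, 1.74% were higher and 1.95% lower at this level. Srebf1, which encodes the SREBP-1 activator of lipogenic genes, stood at 17.6, 17.5 and 22.7 CPM in purified sham and at 30.9, 28.7 and 22.9 CPM in fish oil sham libraries, a log2 fold change of 0.51 ± 0.19 (edgeR adjusted p = 0.934). It was that 1 regulator. In fish oil injured libraries Srebf1 stood at 17.7, 28.0 and 22.9 CPM, and its interaction was -0.58 ± 0.26 (adjusted p = 0.820). All 9 genes of fatty acid supply were above 0 in fish oil against purified sham mice, with a median log2 fold change of 0.16 beside 0.01 for all genes, led by the fatty acid synthase gene Fasn at 0.34 ± 0.17. Ppara, the fatty acid sensing nuclear receptor, stood at 2.45, 2.11 and 2.53 CPM in purified sham and at 2.82, 4.93 and 3.70 CPM in purified injured libraries. Its log2 fold change after injury was 0.69 ± 0.30 on the purified and 0.79 ± 0.30 on the fish oil diet (edgeR adjusted p = 0.763 and 0.999).

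The elongation cycle needs partner enzymes beside the elongases, and the desaturases need electrons from cytochrome b5 and its reductases. Of 7 elongation partners, Hsd17b12, the ketoacyl-CoA reductase of the cycle, had the smallest p for diet in injured mice, with a log2 fold change of 0.32 ± 0.11 (edgeR adjusted p = 0.401), and the list median there was 0.09. The 5 electron transfer genes were all above 0 for the averaged diet comparison, with a median of 0.13 beside 0.01 for all genes, including Cyb5b at 0.15 ± 0.07 and Cyb5r1 at 0.27 ± 0.11. Among the family members outside the set, 6 of 7 were tested, Elovl3 having at most 4 reads in a library. Degs2, a sphingolipid desaturase and hydroxylase at 0.296 to 1.48 CPM, had an averaged diet value of -0.93 ± 0.28 (adjusted p = 0.453), while Degs1, which introduces the double bond of ceramide, had one of 0.24 ± 0.09. Scd3 had a log2 fold change of 0.66 ± 0.22 for diet in injured mice (adjusted p = 0.401), the same direction as Scd1 and Scd2, whose reads it may share.

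Acyl-CoA synthetases, which activate fatty acids before desaturation and elongation, and the peroxisomal genes of chain shortening had list medians from -0.08 to 0.16 over the 7 comparisons. Of the 8 synthetases and transporters, Acsl3 had log2 fold changes of -0.29 ± 0.11 for injury on the purified diet and 0.32 ± 0.11 for diet in injured mice, comparisons that share the purified injured libraries (adjusted p = 0.763 and 0.407). Of 10 peroxisomal genes, Abcd3, a transporter of the peroxisomal membrane, was at 0.32 ± 0.14 for injury on the purified diet. The list medians for diet in sham mice were 0.07 for the synthetases and 0.06 for the peroxisomal genes.

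The genes whose log2 CPM was most like that of each member over the 12 libraries, among 13219 named genes with a mean of at least 1 CPM, were as follows. For Fads1 they were Abhd3 (r = 0.893) and H2-K1 (0.892), and for Fads2 Tmem35a (0.953) and Thsd7b (0.949). After Scd2, the gene most like Scd1 was Fam45a (0.887), and after Scd1, that most like Scd2 was Erg28 (0.900), a gene of sterol synthesis. Elovl1 was most like Daam2 (0.941) and Col15a1 (0.879), Elovl2 most like Ptn (0.934) and Luzp2 (0.933), and Elovl4 most like Jmy (0.909) and Ifrd1 (0.903). Elovl5 was most like Sox1 and Fgf1 (0.950 each), Elovl6 most like Zfp760 (0.919) and Zfp62 (0.914), and Elovl7 most like Smpdl3a (0.899) and Laptm4b (0.867). These are the top values out of many genes over few libraries, which share their groups and tissue makeup.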

How the data were processed

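Brain RNA gave 12 libraries, 3 in each of 4 groups, made with a stranded kit and read in pairs, per the labels' protocols. Per the submitters' processing notes, STAR 2.5.2a, featureCounts 1.4.3-p1 and the mm10 build were used. Annotation release, strand setting and multi-mapping rule were not given in the sources used here. The authors deposited whole-number counts for each gene, not normalized. Symbols were matched by Ensembl identifier without version to GENCODE M21 (53274 of 53379 genes), as were positions and exon lengths on GRCm38. The versions of Fads1, Fads2, Scd1 and Scd2 differ from M21, so their positions and lengths may differ slightly from those counted. Promoters came from RefSeq, GRCm38.p6.

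Genes were kept with filterByExpr (minimum count 10), scaled with TMM factors and fitted with edgeR 4.0.16 (glmQLFit and glmQLFTest, robust) to all 12 libraries with 4 group means. P-values of the 19252 genes were adjusted together (Benjamini-Hochberg) and called under 0.05. SEs were derived from the F statistic. Log2 CPM used a prior count of 2. A fold change is printed where it exceeds its SE (33 of 70 member values). Other tools were DESeq2 1.42.0 and limma 3.58.1. The fit was tested on simulated counts. Named genes are the 10 members, up to 2 genes per pathway list and comparison with the smallest p, and the 2 most alike genes per member, without predicted genes. Members and lists were chosen with earlier results of these data known. Every pair of replicates differed beyond sampling noise (chi-square per degree of freedom of at least 32.5).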

Additional observations from a re-analysis of the deposited data

How the results depend on the processing

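In 1480 refitted values of the 10 genes, under all settings tried, 0 passed the threshold, the lowest adjusted p being 0.189 (Scd2 for diet averaged over injury, by DESeq2). Over all genes edgeR called 0 in each comparison. DESeq2 called 14 for injury on the purified diet, 37 for injury on fish oil, 17 for diet in sham mice, 186 for diet in injured mice, 3 for averaged injury, 99 for averaged diet and 21 for the interaction. In each group, replicates 3 and 4 share the first number of their library name, and no other group has that number. Libraries of a group may therefore not be independent. Limma-voom with a correlation within these library name numbers called 1 for injury on fish oil, 2 for averaged injury and 2 for averaged diet. Without a filter on low counts, averaged injury gave 1 and averaged diet 2 calls. At a threshold of 0.10, and with the astrocyte score as a covariate (chosen after seeing the data), averaged injury gave 1 call. Without the 2 libraries richest in Cdhr1 and Drd2 (number 3 of the purified injured and number 2 of the fish oil sham libraries), diet in injured mice gave 1 call. Leaving out 1 library at a time gave 0 to 83 calls for diet in injured mice, 0 to 7 for injury on fish oil and 0 to 6 for averaged diet, and 0 in the other comparisons. The 83 and 6 came without purified injured replicate 4 and the 7 without fish oil injured replicate 2.

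The sign of Elovl5 for injury on the purified diet turned without the 2 libraries richest in Cdhr1 and Drd2 (-0.0085). Over single libraries left out the Elovl5 value ran from -0.0083 to 0.48. Adjusted for marker scores of choroid plexus, striatum and olfactory bulb it was -0.16, Elovl1 for injury on fish oil was 0.12, Elovl2 for averaged injury -0.032, and the interactions of Scd2 and Elovl5 were 0.19 and 0.31. The cause was not tested. The other printed fold changes kept their sign under every setting run. With the replicate block 0 genes passed in each of the 7 comparisons, and Scd2 for diet in sham mice stood at 0.40 ± 0.14. No pairing by replicate number was seen, though so few libraries per group cannot exclude it. Deviations of same-numbered libraries correlated at -0.37 to 0.28 and those of differently numbered ones at -0.34 to 0.38. Of the 12 libraries, 3 correlated best with their own number.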
